A study of Mus musculus with 18 samples.

Results

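Cohesin peaks were examined at 10 imprinted genes of the mouse grouped for known or proposed control by CTCF, namely H19, Igf2, Meg3, Dlk1, Kcnq1ot1, Grb10, Mest, Peg3, Gnas and Igf2r. A peak was assigned to a gene when its centre lay in the gene body or within 20 kb of it, and overlapping peaks of different lists were merged into 1 site. By this rule 38 of 54864 peaks, and 12 of 18957 sites, belonged to the 10 genes among 37274 genes searched. They lay at 8 of the 10 genes, whereas Kcnq1ot1 and Peg3 had none in any list.

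The peaks came from chromatin immunoprecipitation of RAD21, the kleisin subunit of the cohesin ring, followed by sequencing. The cells were B cells purified from the spleen of young adult C57BL/6 mice (C57BL/6J in the methods), either resting (0 h) or cultured with LPS, a bacterial activator of B cells, and the cytokine IL-4 for 48 h or 96 h. Each time point had 3 replicates, each pooled from several mice, and 1 pooled list called on the merged reads of its replicates. The cells of 96 h were also enriched, by negative selection, for those that had switched to IgG1, so that time in culture and purification cannot be told apart. The labelled cell type cannot be checked from peak positions, and reads of the maternal and paternal chromosome were not separated. The score that the authors deposited with each peak, of a statistic not named in the sources used here, is given with its percentile, the percentage of peaks in the same list with a lower score, with ties counted at their middle.

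Imprinted genes are expressed mainly or only from the maternal or the paternal chromosome, at least in some tissues. Each cluster of them is governed by a control region whose DNA is methylated on a single parental chromosome. CTCF is a zinc finger protein that binds an asymmetric motif, and its binding is blocked by methylation at some motifs. Cohesin slides along chromatin and is held up where CTCF is bound, so most cohesin sites of mammalian cells are also CTCF sites. The textbook case is the control region between Igf2 and H19, where CTCF on the unmethylated maternal chromosome insulates Igf2 from enhancers beyond H19.

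A motif of 20 bases was learned from 592 RAD21 sites shared by 6 or more of the 9 replicates, on chromosomes that hold none of the 10 genes. Its consensus, NNNNNGNGCCCCCTNGTGGN, contains the known core of the CTCF motif. The best match within 100 bp of the site's centre is printed for the sites found in at least 3 replicates or 2 pooled lists, and for Meg3-a because a stronger word without a peak lies near it, in the orientation of this consensus, with the matched 20 bases in capitals and 5 flanking bases on both sides. All sequences and positions are of mouse build mm9, and the sites are lettered by position within a gene.
Grb10-a, chr11:11873598-11873627, + strand: tttggCTGTGCCGACCCCTGGTGGCagtcc
Grb10-b, chr11:11875081-11875110, + strand: ttggtTCATAGCACCATCTAGTGTCttttc
Gnas-a, chr2:174136546-174136575, - strand: taaacTCGGAGCGCCATCTGCCAGCcagtt
Gnas-b, chr2:174137805-174137834, - strand: gagctCTTTGCTGACCTCTGGTGGGtaggc
Dlk1-b, chr12:110676111-110676140, - strand: cgagcTGGCTGCGCCCCCTGCCGGCgggtc
Meg3-a, chr12:110781238-110781267, + strand: tgcggGCCGCGCGCCCCCTAGCGGTctcta

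The H19 control region was searched as the stretch from 2 to 4 kb before the H19 start. Its motif words are printed because the site H19-a covers a single member of a repeated set. The word under H19-a comes first, and the other 3 words had no peak over them in any of the 12 lists.
H19-a, chr7:149767685-149767714, + strand: cgagaCTTCACTGCCGCCGTGCGGCaaccc
first further word, chr7:149766204-149766233, + strand: tagtaTTGTACTGCCACCACGCGGCatcgt
next further word, chr7:149766659-149766688, + strand: taggaGTATGCTGCCACCGCGCGGTagcat
last further word, chr7:149767929-149767958, + strand: atcgaTTTTGCTGCCACCACGCGGCaactc

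The lists differed widely in length, which bears on every count of sites. They held 821 to 3578 peaks in resting replicates, 1538 to 5254 at 48 h and 2807 to 8579 at 96 h, and the pooled lists held 5690, 5579 and 12806 peaks. Resting replicate 2 and 48 h replicate 2 stood apart from the others. Resting replicate 2 was the shortest, and 48 h replicate 2 had a median peak width of 65 bp, against 151 to 212 bp in the other 8 replicates. On the chromosomes of the 10 genes, 1488 sites were found only in 48 h replicate 2 or the pooled 48 h list, and 37 of them (2.49%) had a motif match. Neither of the 2 replicates had a peak at any of the 10 genes. The lists give no reads at a position, so a site without a peak may still be bound.

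Peaks at the 10 genes were most numerous at 96 h. Resting replicates 1, 2 and 3 had 3, 0 and 3 such peaks, a mean of 2 ± 1.73 (SD, n = 3). The replicates of 48 h had 0, 0 and 1, a mean of 0.333 ± 0.577 (SD, n = 3), and those of 96 h had 2, 4 and 6, a mean of 4 ± 2.00 (SD, n = 3). Every 96 h replicate was therefore above every 48 h replicate, while the resting replicates overlapped both. In the pooled lists, the 10 genes had 5 peaks in resting cells, 3 at 48 h and 11 at 96 h.

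Set against the length of the lists, the gap between resting and 96 h cells closed. Every 96 h replicate stayed above every 48 h replicate, but narrowly, the closest values being 6.99 and 6.40. The 6.40 of 48 h replicate 3 was 1 peak among 1563. How often other sets of 10 genes show such a gap, by number or by share, was not examined. The 10 genes took 14.3, 0 and 8.38 of every 10000 peaks in the resting replicates, 0, 0 and 6.40 at 48 h, and 7.13, 8.79 and 6.99 at 96 h. The means were 7.56 ± 7.19 in resting cells, 2.13 ± 3.69 at 48 h and 7.64 ± 1.00 at 96 h (SD, n = 3 each). The resting and 96 h means differed by less than the spread between replicates. The pooled lists gave 8.79, 5.38 and 8.59 per 10000 peaks.

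**Figure D1:**
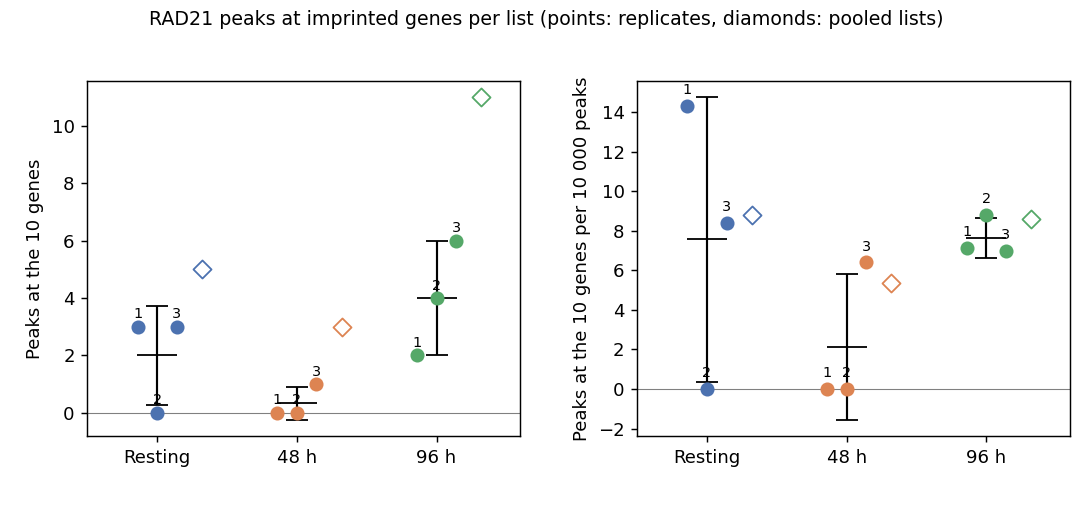
RAD21 peaks at the 10 imprinted genes by time point, as a number (left panel) and per 10000 peaks of the same list (right panel). Filled points are replicates with their number, open diamonds the pooled lists, and bars the mean ± SD of 3 replicates. The number is highest at 96 h (2, 4 and 6 peaks), but per 10000 peaks the 96 h replicates (6.99 to 8.79) lie within the range of the resting replicates (0 to 14.3).

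Of the 10 genes, 8 had a peak in at least 1 of the 12 lists, compared with 45.7% of all 37274 genes and with 55.5% of the 19625 genes whose body length falls within the range of the 10. In the pooled resting list the genes with a peak were Dlk1, Grb10 and Gnas, 3 of 10 against 21.0% of all genes. At 48 h they were Dlk1 and Grb10, 2 of 10 against 17.0%. At 96 h they were the same 3 genes of resting cells together with H19, Igf2, Meg3, Mest and Igf2r, 8 of 10 against 38.2%. In the replicate lists, 6 of 10 had a peak, the exceptions being Mest, Igf2r, Kcnq1ot1 and Peg3, against 39.3% of all genes.

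All 12 sites had a peak at 96 h, which holds for 69.4% of all sites. Of the 12, 7 (58.3%) were found only in 96 h lists, compared with 37.0% of all sites. A resting peak was present at 5 (41.7%, against 31.4% of all sites) and a 48 h peak at 3 (25%, against 46.5%). In the replicates, 8 sites had at least 1 peak (66.7%, against 80.2%) and 4 had peaks in at least 3 of the 9 (33.3%, against 19.8%). The windows of the 10 genes held 14.1 sites per Mb, compared with 7.41 per Mb of the sequenced genome. The genome also takes in stretches far from genes, so the regions compared are unlike. The shares of all sites include those found only in 48 h replicate 2 or the pooled 48 h list. On the chromosomes of the 10 genes, these were 1488 of 6594 other sites. Without them, 2556 of 5106 other sites were found only in 96 h lists. All of these shares are set side by side, without a test.

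**Figure D2:**
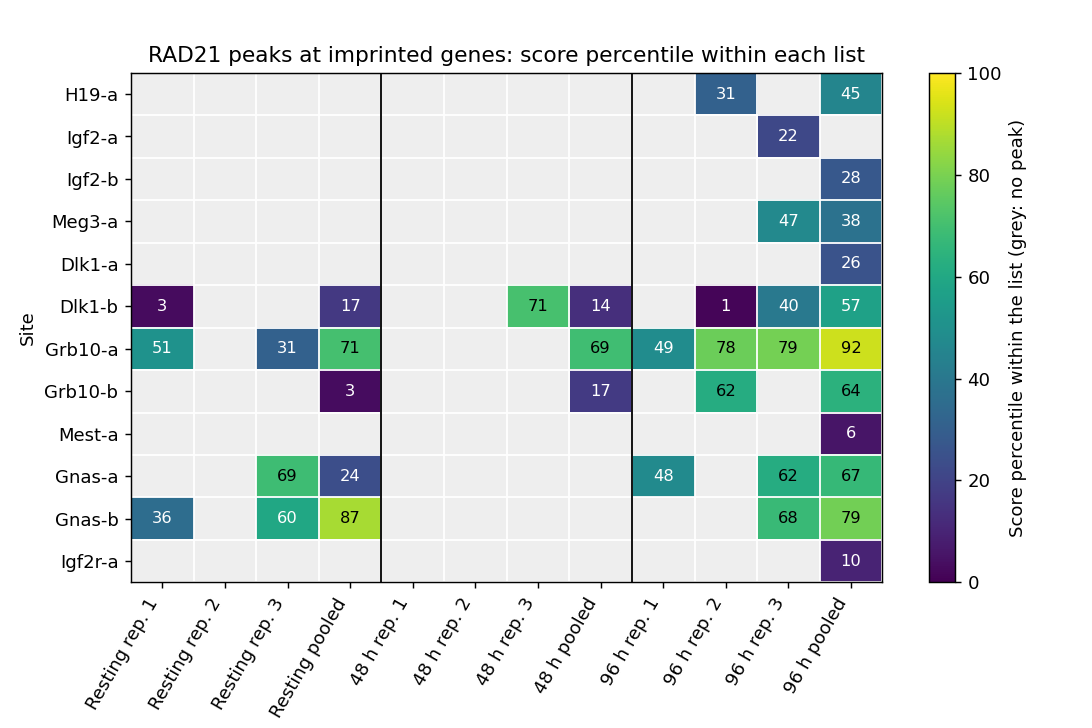
Score percentile of each of the 12 sites (rows) in each of the 12 peak lists (columns), with grey for no peak. Grb10-a has a peak in 8 lists, and 7 of the 12 rows have peaks only in the 96 h columns at the right. The columns of resting replicate 2 and of 48 h replicates 1 and 2 are empty.

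Grb10 encodes an adaptor protein that restrains signalling by the insulin and insulin-like growth factor receptors, and carried the most frequent site. Grb10-a (chr11:11873443-11873717) lies in intron 2 of the 17-exon transcript Grb10-005, 65106 bp inside the gene and 2935 bp before the start of the short transcript Grb10-004. In resting replicates 1 and 3 its scores were 11.6 and 9.08, at percentiles 50.9 and 31.2, and resting replicate 2 had no peak. No replicate of 48 h had a peak. In 96 h replicates 1, 2 and 3 the scores were 10.13, 17.5 and 19.43, at percentiles 48.6, 77.6 and 79.0. All 3 replicates of 96 h and none of 48 h thus had the site, and resting cells were in between.

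The pooled 48 h list nevertheless held Grb10-a, with a score of 12.44 at percentile 69.5. The pooled resting score was 20.82 (percentile 70.6) and the pooled 96 h score 45.05 (percentile 92.4), the highest percentile among the 38 peaks. Its motif word was also the strongest of the 12, at 21.0 on the log2 odds scale, higher than at 86.3% of the other sites on the same chromosomes.

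Grb10-b (chr11:11874944-11875216) lies in the same intron, 63606 bp inside the gene. Only 96 h replicate 2 had it among the replicates, with a score of 13.73 (percentile 61.9). All 3 pooled lists had it, with scores of 6.68 in resting cells, 6.63 at 48 h and 20.75 at 96 h, at percentiles 3.25, 17.1 and 64.4. The neighbouring pair was therefore present at every time point once reads were merged, with Grb10-b at the lower percentile in each list. Neither site lies within 2 kb of an annotated Grb10 transcript start.

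Gnas, which encodes the stimulatory G protein alpha subunit and has several imprinted promoters, carried a pair of sites with peaks in resting and 96 h cells. Gnas-a (chr2:174136454-174136703) and Gnas-b (chr2:174137728-174137983) lie in intron 2 of the transcript Gnas-007, 13218 and 14495 bp beyond the start of Gnas-004. Gnas-a had a score of 13.44 (percentile 69.0) in resting replicate 3, of 9.81 (percentile 47.8) in 96 h replicate 1 and of 14.43 (percentile 61.9) in 96 h replicate 3. The other 6 replicates had no peak there. Its pooled scores were 10.25 (percentile 23.9) in resting cells and 21.89 (percentile 67.2) at 96 h.

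Gnas-b was found in resting replicates 1 and 3, with scores of 10.25 and 12.06 at percentiles 35.8 and 59.6, and in 96 h replicate 3, with a score of 15.84 at percentile 67.6. Its pooled scores were 30.32 (percentile 86.7) in resting cells and 28.86 (percentile 78.8) at 96 h. Of the pair, Gnas-b thus had the higher pooled percentile in both lists. No list of 48 h, replicate or pooled, had a peak at Gnas. Both sites lie between the promoters, outside the stretches within 2 kb of a start of Gnas or of the antisense transcript Nespas.

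Dlk1 encodes a transmembrane protein related to Notch ligands and is expressed from the paternal chromosome, whereas its neighbour Meg3 gives a noncoding RNA from the maternal chromosome. Dlk1-b (chr12:110676003-110676274) lies 14895 bp before the Dlk1 start and was, beside the pair in Grb10, the remaining site with a peak in all 3 pooled lists. It had a score of 6.63 (percentile 3.12) in resting replicate 1, 11.01 (percentile 71.0) in 48 h replicate 3, 5.7 (percentile 1.30) in 96 h replicate 2 and 10.52 (percentile 40.3) in 96 h replicate 3. The pooled scores were 9.32, 6.11 and 18.27 in resting, 48 h and 96 h cells, at percentiles 16.5, 13.5 and 57.1. Its rank thus ran from near the foot of 2 replicate lists to well above the middle of another. It accounts for the single replicate peak that the 10 genes had at 48 h.

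The other 5 sites outside control regions were each in 1 or 2 lists, all of 96 h cells, with percentiles of 9.96 to 47.2. Meg3-a (chr12:110781157-110781343) lies 2039 bp into Meg3, in exon 1 of the transcript Meg3-004 and in intron 1 of several others, and had percentiles of 47.2 in 96 h replicate 3 and 37.7 in the pooled list. Igf2, which encodes a fetal growth factor, had Igf2-a and Igf2-b at 5473 and 9021 bp before its start, Igf2-a in 96 h replicate 3 only (percentile 21.5) and Igf2-b in the pooled list only (percentile 27.5). Dlk1-a, 16350 bp before Dlk1, and Igf2r-a, in intron 18 of the 48-exon transcript Igf2r-001, were in the pooled list only, at percentiles 25.7 and 9.96. Igf2r encodes the receptor that removes Igf2 protein from the cell surface.

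**Figure D3:**
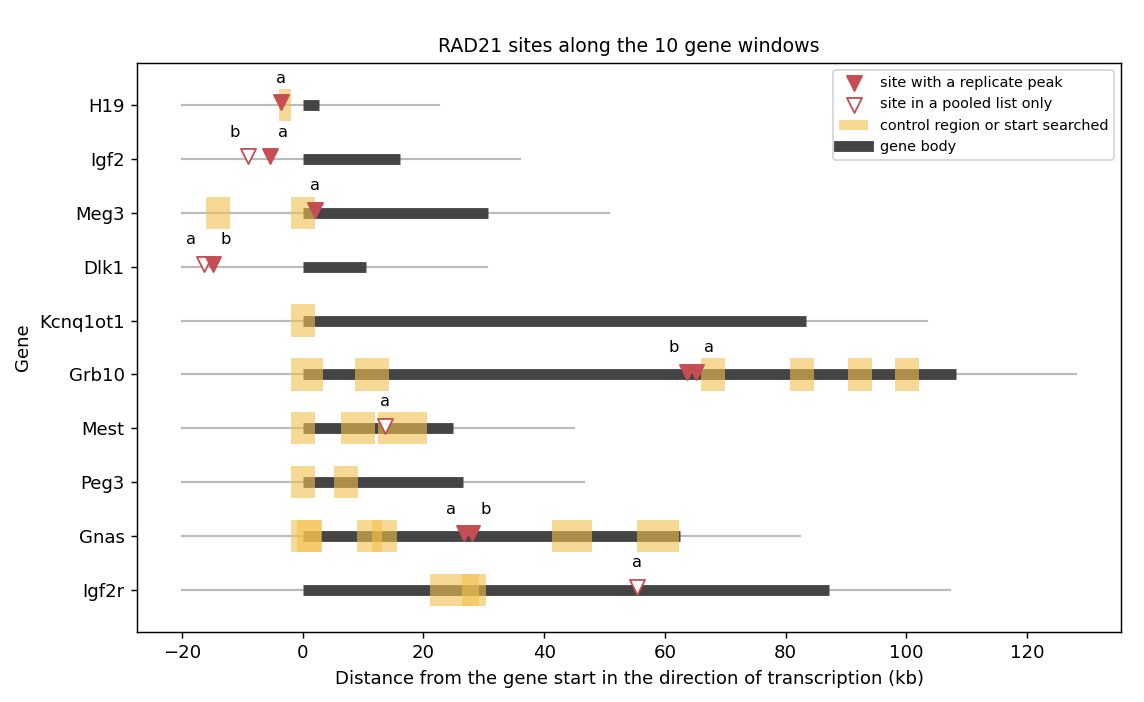
Positions of the 12 sites (triangles, lettered as in the text) along the 10 genes, as distance in kb from the gene start in the direction of transcription. Thick bars are gene bodies, thin lines the 20 kb on both sides, and yellow boxes the control regions and transcript starts searched. Open triangles mark the 4 sites found only in a pooled list. A triangle is centred in a yellow box only at H19 and Mest, and that of Meg3 lies just beyond the edge of one.

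Among the control regions searched, only those of H19 and Mest held a site. This depends on how starts were chosen, since every transcript start was searched at Mest, Peg3, Grb10 and Gnas but only the gene start at Meg3 and Airn. With every transcript start of Meg3 and Airn included, a choice made after seeing the data, Meg3-a was added and the number rose from 2 to 3. H19 gives a maternally expressed noncoding RNA, and H19-a (chr7:149767532-149767768) lies 3602 bp before its start. It had a score of 10.19 (percentile 31.2) in 96 h replicate 2 and of 14.68 (percentile 45.4) in the pooled 96 h list, and no peak in the other 10 lists. Mest encodes a protein of the hydrolase fold and is expressed from the paternal chromosome. Mest-a (chr6:30687094-30687233), 887 bp before the start of the transcript Mest-001, was in the pooled 96 h list only, with a score of 7.26 at percentile 5.65. Both were thus absent from every list of resting and 48 h cells.

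The 4 words of the H19 control region printed above all stand on the + strand, opposite to H19, and share 12 of their 20 bases, in the pattern nTnnnCTGCCnCCnnGCGGn. Any pair of them shares 13 to 18 bases, and each holds 2 or 3 CpG dinucleotides, the target of methylation. The 3 words without a peak scored 11.8, 11.0 and 11.6 log2 odds at 2171, 2626 and 3896 bp before the start, above the level of 10.0 that 5% of windows 1000 bp away from sites pass. The word under H19-a scored 9.38 and was thus the weakest of the 4 and just under that level. At least 3 words above the level were found in the same stretch before 2.55% of 37273 genes.

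No site lay in the intergenic control region of the Dlk1 and Meg3 cluster, searched from 12 to 16 kb before Meg3, nor, by its centre, within 2 kb of the Meg3 gene start. Meg3-a is centred 2039 bp beyond that start, and 772 bp beyond the start of the transcript Meg3-007. The stretch around the Meg3 start nonetheless holds a strong motif word without a peak in any list, 1178 bp beyond the start, with a score of 21.4. It is printed for comparison with Meg3-a.
Meg3 start word, chr12:110780374-110780403, - strand: agtgcCACCAGCGCCCTCTTGCGGCcatca

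A word as strong as the level that 1% of distant windows pass, 17.5 log2 odds, was found within 2 kb of the start of 12.4% of genes. Meg3-a scored 17.2 and lies on the opposite strand. Words of this strength occurred in 1 further control region, near a Gnas start, where a word of 18.0 log2 odds had no peak. There was no site within 2 kb of the start of Kcnq1ot1, the paternally expressed RNA that silences its neighbours, of Peg3, which encodes a zinc finger protein, or of Grb10. The start of Airn, the antisense RNA in Igf2r, and intron 2 of Igf2r had none either.

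The 2 genes without a site were far from one. The nearest to Kcnq1ot1 lies 59091 bp beyond its end, within Kcnq1, and had a peak in all 3 replicates of 96 h, none of the other 6, and all 3 pooled lists. The nearest to Peg3 was 249699 bp away and was found in 48 h replicate 2 only. Near the limit of 20 kb, the farthest site inside was Dlk1-a at 16350 bp and the closest outside lay 21692 bp beyond Igf2r, in 96 h replicate 3 and the pooled 96 h list.

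A motif match above the 5% level was present at 9 of the 12 sites (75%), compared with 68.9% of 6594 other sites on the same chromosomes and 89.5% of the training sites. The share of other sites was 88.2% of 5106 without those found only in 48 h replicate 2 or the pooled 48 h list, and 91.8% of 2556 found only in 96 h lists, so that the 12 sites were above the first share and below both of these. The 3 sites below it were Gnas-a, H19-a and Mest-a, with scores of 8.94, 9.38 and 7.98. At the 1% level, 2 of 12 sites (16.7%) had a match, Grb10-a and Igf2r-a, against 39.5% of the other sites, or 50.8% without the sites found only in those 48 h lists. Of the 9 matches, 4 held a CpG (44.4%, against 42.5% of 4543 matches at other sites). The one with the most, 4, was that of Meg3-a, whose CpG-rich word is among those printed above. A match describes these letters only, and CTCF binding itself was not analysed here.

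**Figure D4:**
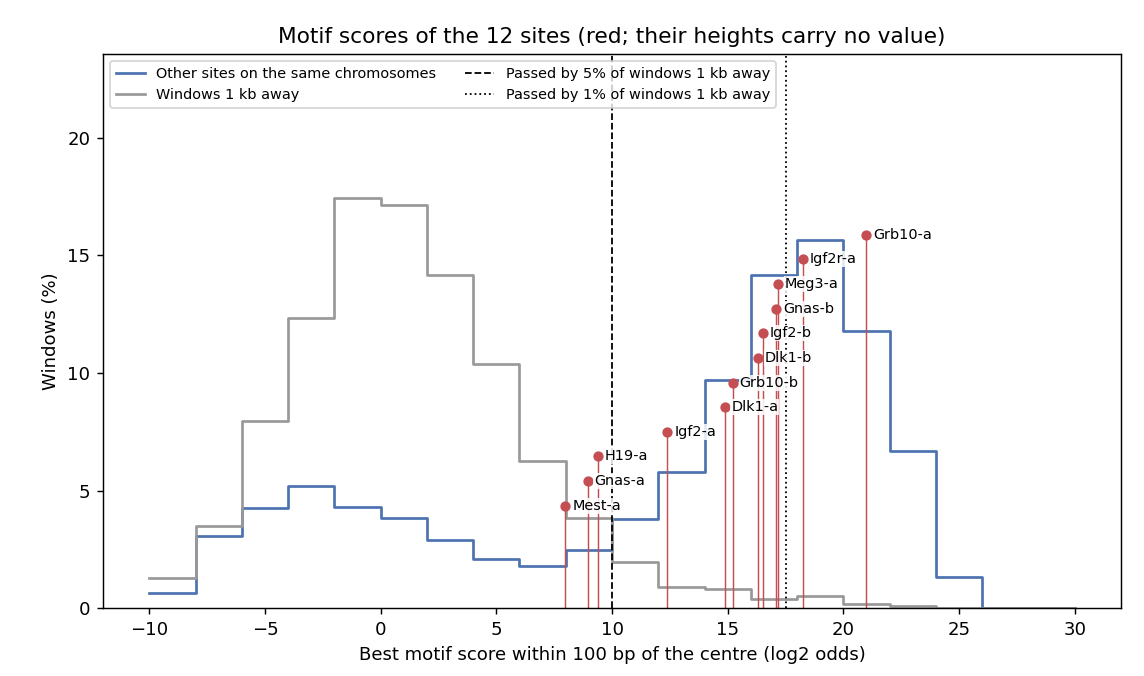
Best motif score (log2 odds) within 100 bp of the centre at the 12 sites (red points, whose height only separates the labels), beside the percentage of other sites on the same chromosomes (blue) and of windows 1 kb away (grey) in each score bin. Dashed and dotted lines are the levels passed by 5% and 1% of those windows. Of the 12 sites, 9 lie to the right of the dashed line, and 2 to the right of the dotted line.

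The number of peaks in each gene window was compared over the 3 time points with the F statistic, whose exact permutation p was taken over 1680 arrangements of the 9 replicates, for all 14643 genes with a replicate peak. Of these genes, 674 (4.60%) had an unadjusted p under 0.05, and 0 passed after Benjamini-Hochberg adjustment, the smallest adjusted p being 0.839. The smallest exact permutation p was 0.00357, the lowest that these arrangements allow. At that p a single gene among 14643 could not pass the adjustment, so this result does not show that no gene changed. Among the 10 genes the smallest p was that of Grb10, with 1, 0 and 1 peaks in resting replicates, 0, 0 and 0 at 48 h and 1, 2 and 1 at 96 h (exact p = 0.0857, adjusted p = 1). Gnas had 1, 0 and 2 peaks, then 0, 0 and 0, then 1, 0 and 2 (exact p = 0.464, adjusted p = 1). H19, Igf2, Meg3 and Dlk1 had p = 1 in the exact test, and the remaining 4 genes had no replicate peak to test. For H19, Igf2 and Meg3, each with a peak in 1 replicate, the test could give no other value.

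Grb10 was the only 1 of the 10 genes in which every 96 h replicate had more peaks than every 48 h replicate. This pattern was seen in 9.04% of the 14643 genes with a replicate peak, to which 6 of the 10 belong. Likewise, Grb10-a was the only 1 of 8 sites with a replicate peak that was in all 3 replicates of 96 h and none of 48 h, against 5.43% of 15225 sites. With 3 replicates against 3, the smallest p an exact test can give is 0.1, which is the two-sided Fisher's exact p of Grb10-a between 48 h and 96 h. No gene and no site of the 10 was set apart in another direction.

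These calls depended on single lists. Without 48 h replicate 2, 1 gene and 1 site were still set apart, against 12.1% of genes with a replicate peak and 8.06% of sites. In that setting the exact p of Grb10 was 0.1 (adjusted p = 0.786). Without 96 h replicate 2, Gnas joined Grb10 and the number of genes higher at 96 h than at 48 h rose from 1 to 2, as did the number of sites in every 96 h and no 48 h replicate, with Gnas-a. The shares of all genes and all sites so called also rose, to 13.4% and 8.39%. Without resting replicate 2, the shortest list, 2 genes and 2 sites were set apart in resting cells from 48 h, namely Grb10 and Gnas, and Grb10-a and Gnas-b, against 6.96% of all genes and 3.85% of all sites. The exact p of Grb10 was then 0.0357 (adjusted p = 0.594). With every list limited to its highest-scoring peaks, as many as the shortest held, 5 sites at 3 genes remained and no gene or site was set apart between 48 h and 96 h.

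The median percentile was 48.6 over 19 replicate peaks and 37.7 over 19 pooled peaks, where a median of 50 marks the middle of a list. For peaks inside the gene bodies alone the medians were 59.6 and 64.4, so that the place of the pooled peaks below or above the middle depends on the window. Peaks above percentile 75 were confined, among these 38, to Grb10-a and Gnas-b.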

How the data were processed

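RAD21 ChIP-seq peaks of 9 replicates and 3 pooled samples were analysed. Per the labels and methods, reads were aligned to mm9 (Bowtie2 in the submitters' processing notes), the number of unique positions was equalised between sets, and MACS 2 called peaks relative to input DNA, with a cutoff on the false discovery rate. The deposited values are positions and a score that the authors' caller gave each peak, and only its rank within a list was used. The 9 inputs entered only through that calling, and columns of other samples numbered 0. Depth behind each peak is therefore unknown, and precision rests on the spread between replicates.

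The 10 genes and all lists were chosen with earlier results of these data known. Genes were taken from GENCODE release M1, which is on the same assembly, except Kcnq1ot1. Its start was placed by the single exact match of the 300 bases of its RefSeq promoter (GRCm38 table), and its body was given the RefSeq length. Control regions were set relative to annotated starts. Peaks sharing at least 1 bp were merged. Gene windows of 20 kb were tested over all genes by exact permutation with Benjamini-Hochberg adjustment at 0.05, and sites by Fisher's exact test. Sites were described singly when found in at least 3 replicates or 2 pooled lists, or in a control region. The other 5 are given briefly so that every gene is complete. Motif levels were those passed by 5% or 1% of windows 1000 bp away. The tools were matplotlib 3.10.9, pysam 0.24.0, scipy 1.17.1, numpy 2.4.6 and Python 3.11.15, and the methods were tested on simulated data. Alternatives were other windows, merging distances, score limits, list lengths, motif levels, a replicate block and leaving out each replicate.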

Additional observations from a re-analysis of the deposited data

How the results depend on the processing

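Of 416 values under 20 alternatives, 362 kept within the limits set for them and 54 moved. A p-value counted as kept unless its adjusted p crossed 0.05. The kept values also include the counts at Kcnq1ot1 and Peg3, which stayed at 0. Counting in the gene body alone left 7 of the 12 sites, at 5 genes in any list, 5 at 96 h and 1 at 48 h. Of all genes, 15.4%, 12.3% and 5.30% then had such a peak. The median pooled percentile was 64.4. Lists as long as the shortest held 821 peaks for replicates and 5579 for pooled lists. They left 5 sites, at 3 genes in any list and 3 at 96 h, against 31.6% and 21.0% of all genes. The median pooled percentile was then 22.4. Higher at 96 h than at 48 h were 0 genes and 0 sites, against 2.78% of genes with a replicate peak and 2.09% of sites. Scores at or above the median of each list left 5 sites. Windows of 50 kb set 2 genes apart in the direction of 96 h over 48 h, against 11.1% of genes with a replicate peak. They set 1 apart in another direction, for which no such share was worked out. The 1% motif level left 2 of 9 matches. Leaving out each replicate in turn gave 1 to 2 genes and 1 to 2 sites higher at 96 h than at 48 h. The shares so called ran from 9.04% to 23.1% of genes with a replicate peak and from 5.44% to 15.1% of sites. Other directions gave 0 to 2 genes and 0 to 2 sites, and the exact permutation p of Grb10 ran from 0.0357 to 0.229. Permutation within replicate numbers, as a replicate block, gave p = 0.222 for Grb10 in the exact test and 0 genes with an adjusted p under 0.05. Under this block, 8 genes had an unadjusted p under 0.05 in the exact permutation test, against 674 without it. The block allows far fewer arrangements, so its p-values come in coarser steps and these counts cannot be compared. Deviations of same-numbered replicates had correlations from -0.15 to 0.236, and 3 of 9 were over 0.1. This falls short of the limit set for a pairing, and whether the replicates were paired is not given in the sources used here. The cause of these shifts was not tested. Peak lists without read counts limit all statements to presence and rank.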

Other observations

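Further imprinted genes were searched in the same way, from a list chosen with earlier results of these data known. Of 50 listed, 49 were in the annotation and 39 (79.6%) had a site within 20 kb, with a median of 1. Copg2, Ins2 and Nespas share a site with Mest, Igf2 and Gnas by position. Of the other 46, 36 (78.3%) had a site, against 45.7% of all genes. Their share with a peak in the pooled resting list was 30.4%, against 21.0% of all genes, in the pooled 48 h list 39.1%, against 17.0%, and in the pooled 96 h list 60.9%, against 38.2%. Neighbouring genes of a cluster can share sites, so these genes are not independent, and no test was made. Among the genes with a site, Dcn, Dio3, Rian, Sfmbt2, Sgce, Slc22a2 and Snrpn had a peak in 1 replicate of 48 h only. Zdbf2 had peaks in 48 h lists only, and all of these genes count among the 36. The shares of all genes were not matched for body length. The most sites were found at Commd1 and Osbpl5, with 5 each, and at Zrsr1, with 4, which lies within Commd1 and shares its sites. Commd1 encodes a regulator of protein turnover and copper handling, and Osbpl5 a lipid transfer protein. Next came Ddc, Slc22a18 and Trappc9 with 3 sites each. Replicate peaks at Osbpl5 were present in 3 resting, 2 48 h and 3 96 h replicates, and at Commd1 in 1, 2 and 3.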
